A study of Mus musculus with 16 samples.

Results

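The genes described here are 10 members of the unfolded protein response and the integrated stress response, Hspa5, Calr, Pdia4, Herpud1, Xbp1, Atf4, Ddit3, Trib3, Chac1 and Asns, read from mouse left ventricle. Their rows were taken by gene symbol, and the members were chosen with earlier results of these data known. All 10 symbols were found among the 55492 genes of the deposited table, and all 10 were among the 20576 genes whose mean normalized count over the libraries reached 10 and which were therefore tested. A normalized count is the number of reads counted on a gene divided by the size factor of its library, and the least abundant member, Trib3, averaged 60.6 over the libraries. The lowest count of reads behind any single member value was 30.

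RNA was sequenced from 16 left ventricles, each from its own male C57BL/6 mouse of 8 to 12 weeks. PKM2fl/fl mice carry loxP sites around the exon that is specific to Pkm2, the M2 splice form of the glycolytic enzyme pyruvate kinase, and served as controls. PKM2-/- mice have lost that exon in every cell of the body, because the floxed line was crossed to CMV-Cre, whose promoter is active in the early embryo and germ line, and Cre was then bred out. Hearts of each genotype were taken without surgery (baseline, n = 2), 3 days after sham surgery (n = 3) or 3 days after permanent ligation of the left anterior descending artery, which causes myocardial infarction (MI, n = 3). The tissue was pulverized whole, so these values mix all cell types of the ventricle, and fewer cells of a type cannot be told apart from less RNA per cell.

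Proteins that enter the secretory pathway fold in the endoplasmic reticulum (ER). When unfolded protein builds up there, the sensors IRE1, ATF6 and PERK start the unfolded protein response. IRE1 splices the Xbp1 transcript into a form that encodes an active transcription factor, ATF6 is cut in the Golgi to release another, and both raise ER chaperones and the machinery that sends misfolded protein to degradation. PERK phosphorylates the translation factor eIF2, as do other kinases that sense viral RNA, haem or mitochondrial stress and lack of amino acids, and this shared branch is the integrated stress response. It lowers general translation while the Atf4 transcript is translated more, so ATF4 protein can rise with little change in Atf4 RNA. ATF4 raises genes of amino acid supply such as Asns, and in prolonged stress Ddit3 (CHOP), Trib3 and Chac1. Neither Xbp1 splicing, eIF2 phosphorylation nor protein was measured by these gene counts.

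The factors of these pathways bind short DNA elements, and the upstream sequences of 5 members are shown because they hold such elements. Each is the 250 bases before the start of the gene, read 5′ to 3′ on the gene's strand from RefSeq on GRCm38.p6, the NCBI name of the mm10 build: Hspa5 at chr2:34771840-34772089, plus strand; Calr at chr8:84846932-84847181, minus strand; Herpud1 at chr8:94386179-94386428, plus strand; Chac1 at chr2:119350992-119351241, plus strand; Asns at chr6:7693210-7693459, minus strand. Capitals mark matches to one of 4 motifs, and no matches overlapped.
Hspa5: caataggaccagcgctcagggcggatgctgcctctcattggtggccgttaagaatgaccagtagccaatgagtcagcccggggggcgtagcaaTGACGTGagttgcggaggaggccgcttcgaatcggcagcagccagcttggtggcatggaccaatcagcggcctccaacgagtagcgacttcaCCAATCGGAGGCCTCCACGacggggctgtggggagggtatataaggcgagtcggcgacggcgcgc
Calr: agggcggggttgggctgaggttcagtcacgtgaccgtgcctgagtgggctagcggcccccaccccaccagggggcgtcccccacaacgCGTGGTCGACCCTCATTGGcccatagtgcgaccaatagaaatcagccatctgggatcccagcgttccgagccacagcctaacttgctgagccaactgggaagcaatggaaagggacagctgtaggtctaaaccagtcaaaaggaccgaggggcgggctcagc
Herpud1: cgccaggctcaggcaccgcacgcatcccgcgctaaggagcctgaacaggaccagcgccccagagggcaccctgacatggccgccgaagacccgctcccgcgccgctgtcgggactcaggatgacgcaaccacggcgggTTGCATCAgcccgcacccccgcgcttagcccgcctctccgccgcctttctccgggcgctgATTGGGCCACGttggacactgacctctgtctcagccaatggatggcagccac
Chac1: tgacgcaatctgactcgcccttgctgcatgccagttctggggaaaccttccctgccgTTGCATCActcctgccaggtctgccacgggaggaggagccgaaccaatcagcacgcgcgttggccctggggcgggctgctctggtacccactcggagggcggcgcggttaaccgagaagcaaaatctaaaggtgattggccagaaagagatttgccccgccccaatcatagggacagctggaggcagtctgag
Asns: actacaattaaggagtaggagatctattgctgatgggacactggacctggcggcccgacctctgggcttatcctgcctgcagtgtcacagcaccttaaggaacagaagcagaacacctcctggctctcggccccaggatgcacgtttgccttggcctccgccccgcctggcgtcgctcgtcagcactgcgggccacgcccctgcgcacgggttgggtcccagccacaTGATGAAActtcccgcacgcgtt

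The capitals in Hspa5 that lie nearer to the start, at -65 to -47 counted from the start, are an ER stress element, searched as CCAAT and CCACG with 9 bases of any kind between them, and Calr holds the same element on the opposite strand at -162 to -144. That element stood in 0.119% of 32851 promoters searched on both strands over 250 bases before to 50 after the start. Hspa5 also holds the core TGACGTG of the XBP1 element at -157 to -151, found in 2.01% of promoters. Herpud1 holds the ER stress element II, searched as ATTGG and CCACG with 1 base of any kind between them and found in 0.0365% of promoters, at -52 to -42. The core of the ATF4 element, searched as TGATGNAA and found in 3.97% of promoters, lies at -23 to -16 in Asns and, on the opposite strand, at -112 to -105 in Herpud1 and -193 to -186 in Chac1. Trib3 holds that core as well, at 15 to 22 after the start. Xbp1, Atf4, Ddit3 and Pdia4 held none of these letters in the window. A match describes the sequence only, and factor binding was not measured.

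At 3 days after MI the members did not move as 1 block. Asns and the ER foldase Pdia4 rose the most (2.95-fold to 3.91-fold), Calr and Xbp1 rose by less, Herpud1 and Ddit3 fell, and the chaperone Hspa5 (BiP) did not pass the test in either genotype. In PKM2fl/fl hearts 6 of the 10 members passed an adjusted p of 0.05 between MI and sham, against 50.1% of all genes tested: 4 rose, against 24.8%, and 2 fell, against 25.3%. In PKM2-/- hearts 8 of 10 passed, against 56.8% of all genes: 5 rose, against 28.7%, and 3 fell, against 28.1%. Of the members 40% rose and 20% fell in PKM2fl/fl hearts and 50% rose and 30% fell in PKM2-/- hearts, shares that depend on the scaling. Scaled by total count, 3 members passed in PKM2fl/fl hearts, Pdia4 and Asns up and Herpud1 down, and in PKM2-/- hearts 7 rose and 1 fell. With ribosomal loci left out of that total, 4 rose and 1 fell in PKM2fl/fl and 7 rose and 1 fell in PKM2-/- hearts. These scalings shift all genes: their median log2 fold change was -0.18 (PKM2fl/fl) and 0.52 (PKM2-/-) under total count. It was 0.13 and 0.36 with ribosomal loci left out. The shares of all genes called under these scalings were not counted. With the study's further threshold of a 2-fold change 3 members passed in PKM2fl/fl hearts, against 23.5% of all genes, and 5 in PKM2-/- hearts, against 28.8%. All MI libraries lay beyond all sham libraries of the genotype in 6 of 10 members in PKM2fl/fl hearts, against 59% of all genes, and in 9 of 10 in PKM2-/- hearts, against 62.3%. Fold changes here and below are on the scale of log2(normalized count + 1), with standard errors (SE) and Benjamini-Hochberg adjusted p from limma over all genes tested.

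**Figure D1:**
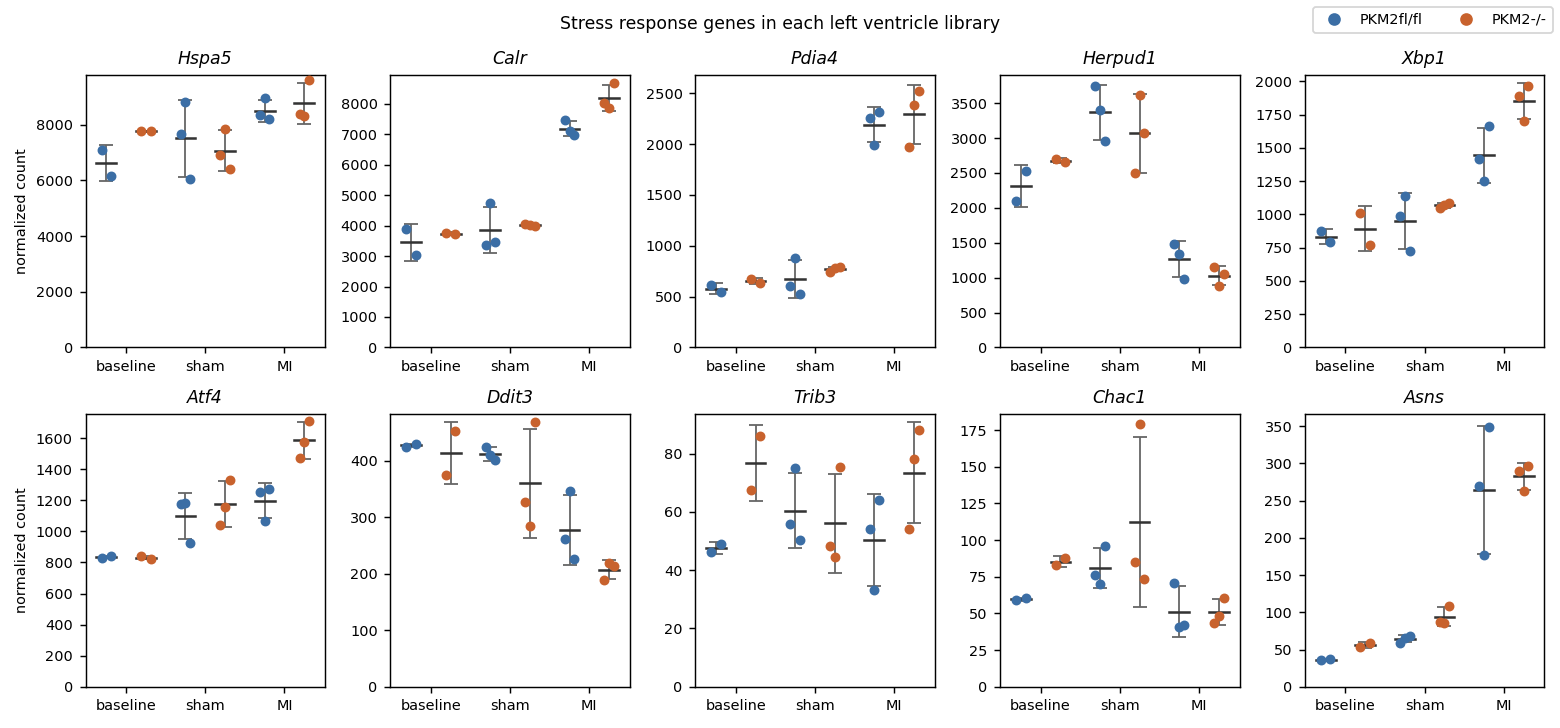
Normalized counts (vertical axes, from 0, a separate scale for each gene) of the 10 members in each of the 16 libraries, by condition and genotype (blue PKM2fl/fl, orange PKM2-/-). Points are libraries, horizontal bars are group means and error bars are SD; Pdia4, Calr and Asns sit above all sham values in all 6 MI libraries, and Herpud1 sits below them.

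Among the chaperones, Hspa5 encodes BiP, the Hsp70 of the ER lumen and the protein that holds the stress sensors inactive. Its normalized counts in PKM2fl/fl hearts were 7084 and 6153 at baseline, 7669, 8804 and 6048 after sham surgery, and 8364, 8954 and 8199.9 after MI. In PKM2-/- hearts they were 7756 and 7775 at baseline, 6918, 7854 and 6421 after sham surgery, and 8396, 8307 and 9618 after MI. The MI and sham values overlapped in PKM2fl/fl hearts, while in PKM2-/- hearts all 3 MI values were above the sham values. The log2 fold change was 0.20 (SE 0.13, adjusted p = 0.227, limma) in PKM2fl/fl hearts and 0.31 (SE 0.13, adjusted p = 0.0513, limma) in PKM2-/- hearts. The latter lay close to the threshold, and DESeq2 on the recovered reads gave an adjusted p of 0.0455.

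Calr encodes calreticulin, a lectin chaperone for glycoproteins that also stores calcium in the ER. Its counts after sham surgery were 3379, 4735 and 3446 in PKM2fl/fl hearts and 4037, 4017 and 3977 in PKM2-/- hearts. After MI they were 7457, 7114 and 6976 in PKM2fl/fl hearts and 8029, 7870.2 and 8666 in PKM2-/- hearts. Every MI library was above every sham library, and the sham values stood near the baseline values of 3885 and 3029 in PKM2fl/fl and of 3768 and 3711 in PKM2-/- hearts. Calr rose by a log2 fold change of 0.92 in PKM2fl/fl hearts (SE 0.12, adjusted p = 2.49e-05, limma) and of 1.03 in PKM2-/- hearts (SE 0.12, adjusted p = 5.74e-06, limma).

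Pdia4 encodes a protein disulfide isomerase of the ER. Its counts in PKM2fl/fl hearts were 615 and 544 at baseline, 602, 883 and 528 after sham surgery, and 2254, 1993 and 2319 after MI. In PKM2-/- hearts they were 678 and 636, then 744, 782 and 788, then 1968, 2385 and 2522. The lowest MI library of either genotype stood far above the highest sham library, 1968 against 883. Pdia4 rose 3.33-fold in PKM2fl/fl hearts (log2 1.74, SE 0.15, adjusted p = 5.86e-07, limma) and 2.95-fold in PKM2-/- hearts (log2 1.56, SE 0.15, adjusted p = 9.50e-07, limma).

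Herpud1, a membrane protein of ER-associated degradation, went the other way from these chaperones. Its counts after sham surgery were 3751, 3395 and 2956 in PKM2fl/fl hearts and 2501, 3621 and 3074 in PKM2-/- hearts. After MI they were 1484, 1338 and 984 in PKM2fl/fl hearts and 1153, 878 and 1059 in PKM2-/- hearts. No MI library reached the lowest sham library, nor the lowest baseline library, the baseline counts being 2097 and 2529.7 in PKM2fl/fl and 2697 and 2649.9 in PKM2-/- hearts. Herpud1 was 2.68-fold lower after MI in PKM2fl/fl hearts (log2 -1.42, SE 0.16, adjusted p = 6.89e-06, limma) and 2.96-fold lower in PKM2-/- hearts (log2 -1.57, SE 0.16, adjusted p = 1.82e-06, limma). Hspa5, Calr and Herpud1 all hold one form of the ER stress element in the sequences above.

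Xbp1, the transcript that IRE1 splices, was counted here without regard to splicing. Its counts after sham surgery were 985, 1139 and 726 in PKM2fl/fl hearts and 1045, 1067 and 1088 in PKM2-/- hearts. After MI they were 1414, 1253 and 1665 in PKM2fl/fl hearts and 1892, 1698 and 1962 in PKM2-/- hearts. The MI libraries were above the sham libraries in each genotype, and above the baseline values of 874 and 793 (PKM2fl/fl) and of 1012 and 772 (PKM2-/-). Xbp1 rose by a log2 fold change of 0.62 (SE 0.15, adjusted p = 0.00318, limma) in PKM2fl/fl hearts and of 0.79 (SE 0.15, adjusted p = 3.78e-04, limma) in PKM2-/- hearts.

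Atf4 encodes the transcription factor of the integrated stress response. In PKM2fl/fl hearts its counts were 829.7 and 839 at baseline, 1179.7, 1186 and 928 after sham surgery, and 1252, 1067 and 1272 after MI. In PKM2-/- hearts they were 839 and 823 at baseline, 1042, 1158 and 1331 after sham surgery, and 1472, 1574 and 1712 after MI. The 4 baseline libraries lay close together, the MI and sham libraries overlapped in PKM2fl/fl hearts, and in PKM2-/- hearts the MI libraries were the highest of the study. The log2 fold change from sham to MI was 0.13 (SE 0.12, adjusted p = 0.378, limma) in PKM2fl/fl hearts and 0.43 (SE 0.12, adjusted p = 0.00521, limma) in PKM2-/- hearts. The effect passed in 1 genotype only, but the difference between the genotypes, 0.30 (SE 0.17), had an adjusted p of 0.661 by limma.

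Ddit3 encodes CHOP, a transcription factor tied to apoptosis under lasting ER stress. Its counts after sham surgery were 425, 409.6 and 402 in PKM2fl/fl hearts and 328, 285 and 469 in PKM2-/- hearts. After MI they were 261, 347 and 227 in PKM2fl/fl hearts and 189, 219.7 and 214 in PKM2-/- hearts. The infarcted ventricles were below every sham library of the same genotype and below the baseline libraries, which held 425 and 429 (PKM2fl/fl) and 375 and 453 (PKM2-/-). Ddit3 fell in PKM2fl/fl hearts (log2 -0.59, SE 0.18, adjusted p = 0.0117, limma) and in PKM2-/- hearts (log2 -0.77, SE 0.18, adjusted p = 0.00168, limma). Without the third PKM2fl/fl MI library the former had an adjusted p of 0.0578. The fall depends on the scaling: under total count Ddit3 had adjusted p of 0.0578 in PKM2fl/fl and 0.522 in PKM2-/- hearts (limma). With ribosomal loci left out of the total they were 0.0663 and 0.0795.

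Trib3, a pseudokinase that CHOP and ATF4 raise and that restrains both, and Chac1, an enzyme that breaks down glutathione, were scarce. Trib3 counts in PKM2fl/fl hearts were 55.8, 74.9 and 50.5 after sham surgery and 54.1, 33.2 and 64 after MI, and in PKM2-/- hearts 48.2, 44.4 and 75.5 after sham surgery and 54.3, 78.1 and 88 after MI. The groups overlapped in both genotypes, and the log2 fold changes of -0.29 and 0.40 (both SE 0.29) had adjusted p of 0.431 and 0.257 by limma. Chac1 counts in PKM2fl/fl hearts were 76.4, 69.8 and 96.1 after sham surgery and 71.1, 40.7 and 42.1 after MI, and in PKM2-/- hearts 85.2, 179 and 73.4 after sham surgery and 43.8, 48.3 and 60.6 after MI. The first PKM2fl/fl MI library overlapped the sham libraries, while in PKM2-/- hearts all 3 MI libraries were lower. Chac1 did not pass in PKM2fl/fl hearts (log2 -0.68, SE 0.30, adjusted p = 0.0749, limma) and fell in PKM2-/- hearts (log2 -1.03, SE 0.30, adjusted p = 0.00901, limma). Without the second PKM2-/- sham library, the highest, the latter became -0.64 with an adjusted p of 0.0545, and in PKM2fl/fl hearts leaving out that library, or the first MI library, gave an adjusted p of 0.0268 and 0.0246.

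Asns encodes asparagine synthetase, which makes asparagine from aspartate and glutamine and is a standard readout of ATF4. Its counts in PKM2fl/fl hearts were 35.3 and 37.2 at baseline, 59.3, 65.7 and 68.6 after sham surgery, and 269, 177 and 348 after MI. In PKM2-/- hearts they were 53.6 and 58.6, then 86.8, 86.2 and 109, then 290.2, 262 and 296. The 3 conditions did not overlap in either genotype, and the MI libraries of PKM2fl/fl hearts were the most scattered. Asns rose 3.91-fold from sham to MI in PKM2fl/fl hearts (log2 1.97, SE 0.21, adjusted p = 3.04e-06, limma) and 3.00-fold in PKM2-/- hearts (log2 1.59, SE 0.21, adjusted p = 1.24e-05, limma). Asns and Chac1, which both hold the ATF4 core in the sequences above, thus had fold changes of opposite sign. The fall of Chac1 passed in PKM2-/- hearts only, and not there under total-count scaling or without the second sham library.

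**Figure D2:**
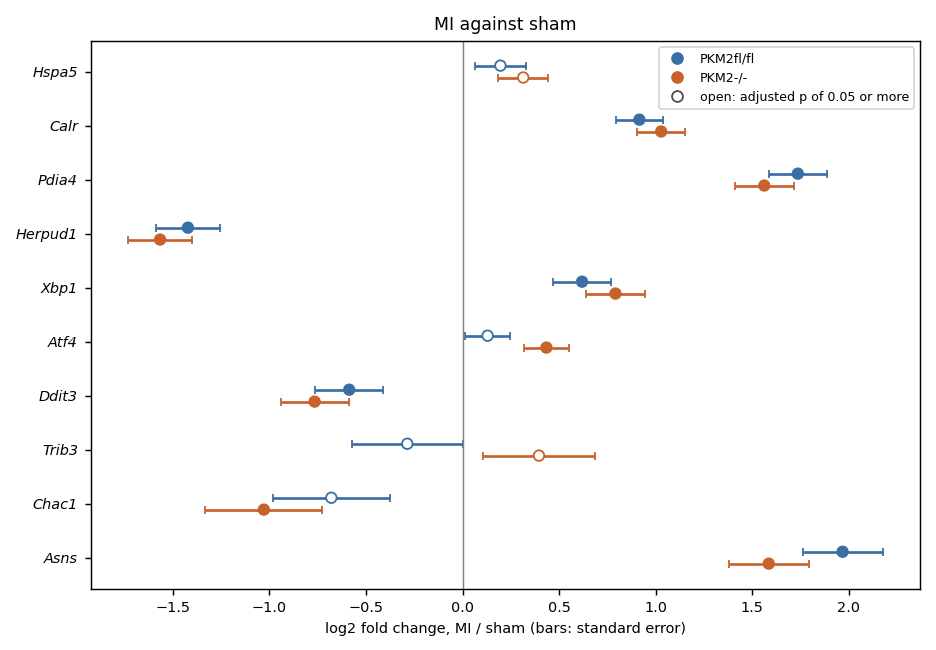
Log2 fold change of MI against sham for the 10 members (horizontal axis; bars are SE from limma), blue for PKM2fl/fl and orange for PKM2-/- hearts, with filled points where the adjusted p was under 0.05. Asns and Pdia4 lie between 1.56 and 1.97, Herpud1 lies at -1.42 and -1.57, and Hspa5 and Trib3 have open points in both genotypes.

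The genotypes' MI effects were compared directly. No member passed, and no gene of the 20576 passed: percent called was 0 by limma at an adjusted p of 0.05. Without adjustment no member and 8.28% of all genes had a p under 0.05. The differences of the members' log2 fold changes (PKM2-/- minus PKM2fl/fl) ran from -0.38 for Asns (SE 0.29) to 0.68 for Trib3 (SE 0.41), with adjusted p of 0.661 to 0.899. edgeR and DESeq2 on the recovered reads also called 0 of the members, and their calls over all genes were not counted. A p that misses the threshold does not show that the genotypes respond alike, and with 3 libraries a group differences of this size came with SE of 0.17 to 0.43.

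The genotypes were then compared within each condition. After MI, no member passed between PKM2-/- and PKM2fl/fl hearts, against 0.967% of all genes, and 3 members had an unadjusted p under 0.05, against 17% of all genes. They were Atf4, higher in PKM2-/- hearts by a log2 difference of 0.41 (SE 0.12, adjusted p = 0.0986, limma), Xbp1, higher by 0.36 (SE 0.15, adjusted p = 0.235, limma), and Ddit3, lower by 0.40 (log2 difference -0.40, SE 0.18, adjusted p = 0.260, limma). In Atf4, Xbp1 and Calr every PKM2-/- MI library was above every PKM2fl/fl MI library and in Ddit3 every one was below, so 4 of 10 members did not overlap, against 18.9% of all genes. DESeq2 called 1 member, Atf4 (log2 0.40, adjusted p = 0.0358), and edgeR called 0 (Atf4 0.40, adjusted p = 0.0960). The shares of all genes that DESeq2 and edgeR called were not counted, so these counts have no background. Without the third PKM2fl/fl MI library limma also called Atf4 (0.45, adjusted p = 0.0333). That library had the lowest sum of cardiomyocyte markers of the infarcted hearts, 169408. The other PKM2fl/fl MI libraries had 390021 and 366677, and the PKM2-/- MI libraries had 248558, 179653 and 172879. With that library left out, the cardiomyocyte sums after MI therefore did not overlap between genotypes, whereas with it they did. Neutrophil marker sums were 1232 to 2138 in PKM2fl/fl and 3527 to 4521 in PKM2-/- hearts after MI, those of plasma cell markers 687 to 1046 and 1164 to 1336, and those of atrial markers 9080.1 to 10179 and 10194 to 11652, none of which overlapped, while the sums of the other lists did. The part of these markers in the genotype values was not tested.

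At baseline no member passed between genotypes by limma, edgeR or DESeq2, against 0.00972% of all genes by limma. Hspa5, Pdia4, Herpud1, Trib3, Chac1 and Asns had both PKM2-/- libraries above both PKM2fl/fl libraries, 6 of 10 members against 34.9% of all genes in either direction and 17.7% in that direction. The one member with an unadjusted p under 0.05, against 3.64% of all genes, was Asns (log2 0.62, SE 0.25, adjusted p = 1, limma). This comparison had 2 libraries a group. After sham surgery no member passed either by limma, edgeR or DESeq2, against 0.00972% of all genes by limma, and Asns was again the one with an unadjusted p under 0.05, against 9.95% (log2 0.53, SE 0.21, adjusted p = 0.401, limma). Asns was also the one member without overlap there, its 3 PKM2-/- sham libraries being above the 3 PKM2fl/fl sham libraries, against 16.5% of all genes.

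**Figure D3:**
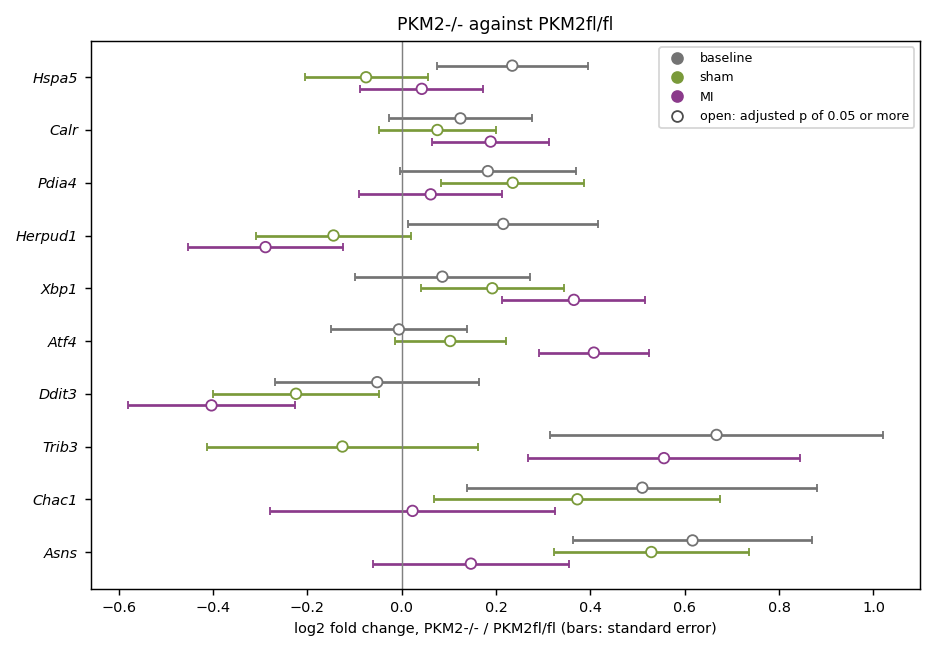
Log2 difference of PKM2-/- against PKM2fl/fl hearts for the 10 members (horizontal axis; bars are SE from limma) at baseline (grey), after sham surgery (green) and after MI (purple). All points are open, that is, no adjusted p was under 0.05; Asns lies at 0.62, 0.53 and 0.15, and Atf4 at -0.0061, 0.10 and 0.41.

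Surgery alone was read from sham against baseline. In PKM2fl/fl hearts no member passed by limma, edgeR or DESeq2, against 0.19% of all genes by limma, and 3 members had an unadjusted p under 0.05, against 8.81%: Asns, Atf4 and Herpud1, with log2 differences of 0.81, 0.39 and 0.54. In PKM2-/- hearts 1 member passed, against 5.14% of all genes. It was Atf4, which rose by a log2 fold change of 0.49 (SE 0.13, adjusted p = 0.0410, limma), all 3 sham libraries being above both baseline libraries. This call held with DESeq2 (log2 0.50, adjusted p = 0.0160) and not with edgeR (adjusted p = 0.0562), and by limma it did not hold with the replicate number as a block (0.48, adjusted p = 0.0819), without a filter (adjusted p = 0.0689), with only the groups compared (adjusted p = 0.0793) or under total-count scaling (0.71, adjusted p = 0.357). Nor did it hold without either baseline library of either genotype, or without replicate 2 or 3 of PKM2-/- sham or of PKM2-/- MI, where the adjusted p for Atf4 ran from 0.0504 to 0.196. Asns stood at 0.73 in these hearts (SE 0.23, adjusted p = 0.0878, limma). For Asns the order of the means was therefore baseline, sham and MI in each genotype, from 36.2 ± 1.29 (SD, n = 2) to 64.6 ± 4.75 (SD, n = 3) and 265 ± 85.9 (SD, n = 3) in PKM2fl/fl hearts.

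Read per length of the canonical transcript, so that genes could be set side by side, Calr and Hspa5 were the most abundant members in all 6 groups and Trib3, Chac1 and Asns the least abundant at baseline. The order rests on the length taken for each gene, and whether that transcript was the one expressed was not checked. Before division by length Hspa5 stood above Calr, with mean counts of 6618 and 3457 in PKM2fl/fl baseline hearts. In PKM2fl/fl baseline hearts the level was 1511 ± 264 (SD, n = 2) normalized counts per kb for Calr and 1336 ± 133 for Hspa5, which did not differ beyond their spread. Herpud1 followed at 742 ± 98.3, then Atf4, Xbp1 and Ddit3 between 394 and 479, Pdia4 at 106 ± 9.18, Chac1 at 35.9 ± 0.640, Trib3 at 22.8 ± 0.942 and Asns at 7.39 ± 0.264. After MI in PKM2fl/fl hearts Calr stood at 3139 ± 108 (SD, n = 3) per kb and Hspa5 at 1717 ± 80.1. Herpud1 went from rank 3 to rank 5, with 407 ± 82.5 per kb beside 398 ± 31.4 for Pdia4, and Asns went from the last rank to rank 8, at 54.0 ± 17.5 per kb.

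The rest of the pathway was read from 7 lists ordered by role, 107 genes in all including the members, of which 104 were tested. The lists were chosen with earlier results of these data known, and the background of all genes tested was not matched to them for level. In each genotype 55 of the 104 rose after MI and 15 fell, 52.9% and 14.4%. Over all genes tested 24.8% rose and 25.3% fell in PKM2fl/fl hearts, and 28.7% rose and 28.1% fell in PKM2-/- hearts, and these shares are the background for each list below. The median log2 fold change was 0.33 in PKM2fl/fl and 0.39 in PKM2-/- hearts, beside -0.0025 and 0.010 over all genes tested. Under total-count scaling 23 rose and 9 fell in PKM2fl/fl and 66 rose and 5 fell in PKM2-/- hearts, where all genes shifted by a median of -0.18 and 0.52. With ribosomal loci left out of the total, the split was 58 and 8 in PKM2fl/fl and 79 and 7 in PKM2-/- hearts. All genes then shifted by a median of 0.13 and 0.36. The shares of all genes called under these scalings were not counted, so such counts have no background, here or for the lists below. ER chaperones and foldases had 17 of 20 that rose (85%, against 24.8% and 28.7% of all genes) and 1 that fell (5%, against 25.3% and 28.1%) in each genotype, with medians of 0.77 and 0.93. Scaled by total count, 8 rose and 1 fell in PKM2fl/fl hearts and 18 and 0 in PKM2-/- hearts. The one that fell, named after its value was seen, was Dnajb9, a BiP cochaperone that restrains IRE1 (-0.70 and -0.65). Hsp90b1, the ER Hsp90, rose from 5692 ± 1053 to 9562 ± 276 in PKM2fl/fl hearts (log2 0.76, SE 0.14, adjusted p = 4.00e-04, limma) and by 0.74 in PKM2-/- hearts. Pdia3, the disulfide isomerase that works with calreticulin, rose by 1.42 and 1.31, whereas the values of the membrane lectin Canx, 0.079 and 0.17, did not pass.

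Of 16 genes of ER-associated degradation, 8 rose and 3 fell in PKM2fl/fl hearts (50% and 18.8%, against 24.8% and 25.3% of all genes), and 8 rose and 2 fell in PKM2-/- hearts (50% and 12.5%, against 28.7% and 28.1%). Edem1, a lectin that marks misfolded glycoproteins for removal, rose by a log2 fold change of 1.66 (SE 0.16) and 1.61 (SE 0.16), with adjusted p of 1.27e-06 and 1.13e-06 by limma. Sel1l, the scaffold of the ubiquitin ligase Syvn1, rose by 0.24 and 0.20, and Syvn1 rose by 0.43 in PKM2fl/fl hearts while its 0.30 in PKM2-/- hearts did not pass (adjusted p = 0.0610, limma). Scaled by total count, 1 rose and 1 fell in PKM2fl/fl hearts, and 9 rose and 1 fell in PKM2-/- hearts. With the deposited scaling, those that fell included Herpud1 in both genotypes and, named after its value was seen, Vcp in PKM2fl/fl hearts (-0.27).

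Of 12 sensors and transcription factors, 8 rose (66.7%, against 24.8% and 28.7% of all genes) and 2 fell (16.7%, against 25.3% and 28.1%) in each genotype. Ern1, which encodes IRE1, rose by a log2 fold change of 0.47 and 0.48 (both SE 0.12), and Eif2ak3, which encodes PERK, rose by 0.58 and 0.83 (both SE 0.11). Atf6 fell, from 4785 ± 592 to 3184 ± 138 in PKM2fl/fl hearts (log2 -0.58, SE 0.12, adjusted p = 7.85e-04, limma) and fell by 0.62 in PKM2-/- hearts. The genes of the 3 sensors thus did not share a direction. Wfs1, named after its value was seen, was the other gene that fell (-0.63 and -0.99). Scaled by total count, the list had 2 that rose and 1 that fell in PKM2fl/fl and 8 and 0 in PKM2-/- hearts. Of 14 genes for eIF2 kinases, phosphatases and the exchange factor eIF2B, 4 rose and 4 fell in each genotype, with medians of -0.058 and 0.060. Each is 28.6% of the list, near the shares of all genes (24.8% and 25.3% in PKM2fl/fl, 28.7% and 28.1% in PKM2-/- hearts). Eif2ak4, the kinase that senses lack of amino acids, rose by 0.44 and 0.56, Eif2ak2, the kinase that senses double-stranded RNA, rose by 0.80 in PKM2fl/fl hearts with 0.40 in PKM2-/- hearts not passing, and the haem-regulated Eif2ak1 passed in neither (-0.050 and 0.027). Under total-count scaling the split of this list was 0 that rose and 2 that fell in PKM2fl/fl and 5 and 1 in PKM2-/- hearts. Named after their values were seen, Eif2s1 and Ppp1r15b rose and Dele1, Eif2b4, Eif2b5 and Oma1 fell in both genotypes, with Dele1, which relays mitochondrial stress to eIF2 kinases, at -1.21 and -1.73.

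Downstream of eIF2, most amino acid genes rose after MI, while the regulators around CHOP were split between genes that rose and genes that fell. Of 16 amino acid genes of the ATF4 programme, 11 rose and 1 fell in PKM2fl/fl hearts (68.8% and 6.25%, against 24.8% and 25.3% of all genes) and 10 rose and 1 fell in PKM2-/- hearts (62.5% and 6.25%, against 28.7% and 28.1%), with medians of 1.74 and 1.14. The one that fell in both, named after its value was seen, was Cth, an enzyme of cysteine synthesis (-1.87 and -2.23). Psat1 and Phgdh, enzymes of serine synthesis, rose by log2 fold changes of 2.42 and 1.78 in PKM2fl/fl hearts and of 2.82 and 2.34 in PKM2-/- hearts, while Psph, the last enzyme of that pathway, passed in neither (0.25 and 0.17). Of 15 regulators and targets around ATF4 and CHOP, 4 rose and 4 fell in PKM2fl/fl hearts and 4 rose and 5 fell in PKM2-/- hearts, with medians of -0.10 and 0.27. These are 26.7% each way in PKM2fl/fl hearts and 26.7% and 33.3% in PKM2-/- hearts, near the shares of all genes. Under total-count scaling the split was 3 and 3 in PKM2fl/fl and 8 and 2 in PKM2-/- hearts, so the balance of this list depends on the scaling. Besides Ddit3 and, in PKM2-/- hearts, Chac1, those that fell were Stc2, Vldlr and Ddit4 in PKM2fl/fl hearts and Stc2, Vldlr and Atf5 in PKM2-/- hearts. Among those that rose, Sesn2, a stress-induced inhibitor of mTORC1, rose by 1.30 and 1.34. Atf3 rose by 1.08 in PKM2fl/fl hearts and stood at 0.56 in PKM2-/- hearts without passing (adjusted p = 0.172, limma), and Atf5 fell by 0.68 in PKM2-/- hearts and stood at -0.42 in PKM2fl/fl hearts without passing (adjusted p = 0.0849, limma). Of 11 cytosolic tRNA synthetases, 3 rose in PKM2fl/fl (27.3%, against 24.8% of all genes) and 4 in PKM2-/- hearts (36.4%, against 28.7%) and none fell. Scaled by total count, 0 rose in PKM2fl/fl and 6 in PKM2-/- hearts, and with ribosomal loci left out of the total 5 and 10 rose, none falling. All genes shifted by medians of -0.18 and 0.52 under the former and of 0.13 and 0.36 under the latter. Shares of all genes called were not counted there, so these counts have no background. With the deposited scaling Cars stood at 0.37 and 0.24, Aars at 0.25 and 0.29 and Eprs at -0.083 and 0.022, of which Cars passed in PKM2fl/fl and Aars in PKM2-/- hearts. Gars and Tars, named after their values were seen, rose in both (0.56 and 0.48, 0.64 and 0.75).

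**Figure D4:**
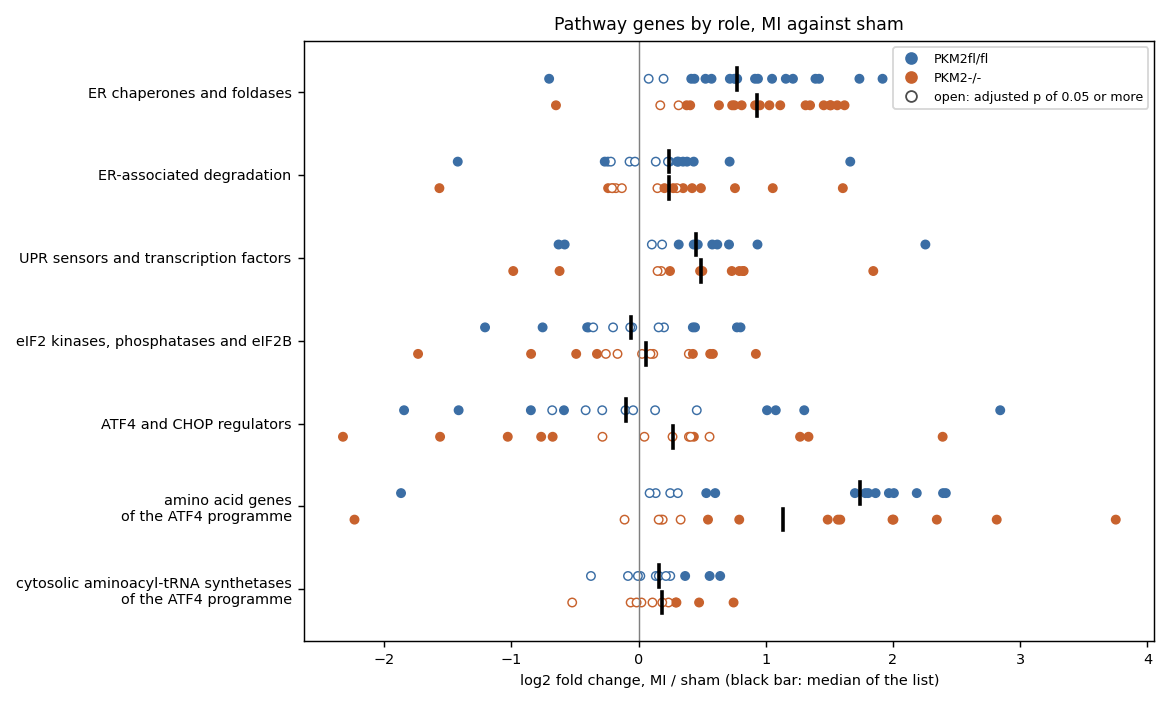
Log2 fold change of MI against sham (horizontal axis) for the genes of the 7 role lists, 1 point a gene, blue for PKM2fl/fl and orange for PKM2-/- hearts, filled where the adjusted p was under 0.05, with the list's median as a black bar. Chaperones (medians 0.77 and 0.93) and amino acid genes (1.74 and 1.14) lie to the right, and the ATF4 and CHOP regulators spread to both sides of 0.

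Marker RNA of several cell types differed between sham and MI libraries along with these genes. The summed normalized count of 7 cardiomyocyte markers, none of them below 60550 in its highest library, was 759873 to 976136 in the 6 sham libraries and 169408 to 390021 in the 6 MI libraries. The sum of 6 fibroblast markers went from 24171 to 45424 up to 141808 to 196246, and that of 6 monocyte and macrophage markers from 4613 to 9122 up to 19571 to 34998. The sum of 6 markers of plasma cells, which secrete antibody and use this pathway heavily, went from 182 to 279.7 up to 687 to 1336, with the defining marker Tnfrsf17 at no more than 10.4 in any library. Most of that sum was Sdc1, which other cells also express, at a mean of 463 over the 16 libraries beside 32.9 for Pou2af1 and 11.5 for Jchain. Sums of 5 neutrophil markers ran from 224 to 1312 in sham and from 1232 to 4521 in MI libraries, and those of 4 endothelial markers from 12859 to 15651 and from 15353 to 17406. Sums of 4 atrial markers were 2563 to 6986.8 in sham and 9080.1 to 11652 in MI libraries, and most of this was Nppa, which stressed ventricle also expresses, at a mean of 5877 beside 339 for Myl4. Sums of 4 erythroid markers were 4332 to 6827 and 5443 to 18081, and those of 4 adipocyte markers 26.4 to 90.6 and 15.5 to 175. The part of these differences in the members' values was not tested.

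**Figure D5:**
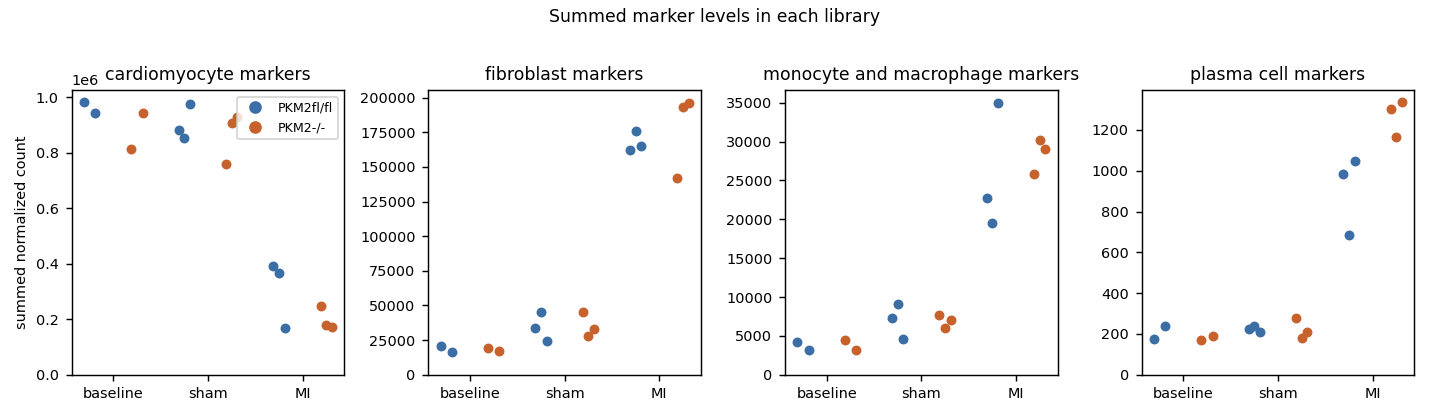
Summed normalized counts (vertical axes, from 0) of the cardiomyocyte, fibroblast, monocyte and macrophage, and plasma cell markers in each library, by condition and genotype (blue PKM2fl/fl, orange PKM2-/-). All 6 MI libraries lie below the sham range for cardiomyocyte markers and above it for the other 3 lists.

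Depth was 20623769 to 71855101 reads on genes a library. Between 15.8% and 46.3% of them fell on 6 loci that encode rRNA or take up ribosomal reads, with 39.9% to 44.0% in PKM2-/- and 17.3% to 22.1% in PKM2fl/fl baseline hearts, and the part of this in the genotype values was not tested. The mitochondrial rRNA genes mt-Rnr1 and mt-Rnr2 are among these loci, at mean normalized counts of 2860137 and 5146994 over the libraries. Pkm itself counts reads of both splice forms and so does not test the genotype label: its counts were 7779 to 12076 in PKM2fl/fl and 10120 to 16113 in PKM2-/- libraries.

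Finally, the genes most like Hspa5 and Ddit3 were listed by Pearson r of log2(normalized count + 1) over the 16 libraries, which share the conditions and, through them, the marker levels above. For Hspa5 they were Gm47882 (0.862), 1810014B01Rik (0.859), Tonsl (0.845), Hsp90b1 (0.839) and Gm15978 (0.839), and 0.0875% of genes exceeded an r of 0.8. For Ddit3 they included Zfp955b (0.963), Cth (0.961), Gapdhs (0.960) and Tmem204 (0.959), and 15.9% of genes exceeded 0.8. Hspa5 thus had few genes with a pattern like its own and Ddit3 had many.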

How the data were processed

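RNA of 16 mouse left ventricles was depleted of rRNA and sequenced (NEBNext Ultra II), and the authors used PRINSEQ for trimming, HISAT2 for alignment to the mm10 build, featureCounts for gene counts and DESeq2 for size factors, by which the counts were divided. Versions, strand and multi-mapping settings are not given in the sources used here, so overlapping genes cannot be told apart. The deposited per-library values are thus a signal of normalized counts, and in each library 100% of them were whole multiples (tolerance 0.01 reads) of what 1 read is worth, so reads could be recovered. The table also holds the authors' own baseline comparison: a mean over libraries, a log2 fold change with its standard error, a Wald statistic (a score) and p-values. None of these was used.

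Groups came from the GEO labels. limma 3.58.1 in R 4.3.3 was fitted with a trend to log2(value + 1) with 6 group means over all 16 libraries, for genes with a mean of at least 10 (20576 of 55492), with Benjamini-Hochberg adjustment over all of them; an adjusted p under 0.05 passed, in place of the study's further 2-fold threshold, which was an alternative. The other alternatives were TMM and total-count scaling (with and without ribosomal loci), DESeq2 1.42.0 and edgeR 4.0.16 on recovered reads, a pseudocount of 0.1, no filter, a minimum mean of 50, only the groups compared, a replicate block, and leaving out each library. limma, edgeR and DESeq2 were run on simulated counts with known changes in the PKM2fl/fl MI group. Those changes were few and balanced in direction, unlike the MI data, so the simulation cannot check the scaling. The members, lists and tests were chosen with earlier results of these data known. The text names all members, the first 3 other genes of each role list, and the 5 genes most like Hspa5 and Ddit3, except for results not reported here. Of 107 listed genes Derl3, Creb3l3 and Fgf21 were too low to test. Transcript lengths came from GENCODE M39. Same-numbered libraries share no animal, so no block entered the model. Their deviations from the group means correlated by -0.196 to 0.126 over 36 pairs. With 2 or 3 libraries a group such deviations are tied to each other, so these correlations cannot decide whether same-numbered libraries shared a batch.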

Additional observations from a re-analysis of the deposited data

How the results depend on the processing

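The counts and 30 single-member results were recomputed under 26 alternatives. Shares of all genes called were counted for the main fit only. Total-count scaling moved the median of all genes by -0.18 for MI in PKM2fl/fl hearts, 0.52 for MI in PKM2-/- hearts, -0.59 for genotype at baseline and 0.67 for the difference of MI effects (log2). Under it Atf4 in PKM2fl/fl hearts after MI turned to -0.047 (adjusted p = 0.931), 3 members passed there in place of 6, and 32 pathway genes in place of 70. Xbp1 (adjusted p = 0.280), Calr (0.0682) and Ddit3 (0.0578) no longer passed in PKM2fl/fl hearts, nor Ddit3 (0.522) and Chac1 (0.266) in PKM2-/- hearts, where Trib3 (0.0441) passed. Without the ribosomal loci in the total, Ddit3 (0.0663 and 0.0795, PKM2-/- last) and Chac1 in PKM2-/- hearts (0.0607) did not pass, and Trib3 there did (0.0247). The cause was not tested. Hspa5 in PKM2-/- hearts passed under 10 of the alternatives, with adjusted p from 0.00384 to 0.0455. With the 2-fold threshold 3 members and 27 of the 104 pathway genes passed in PKM2fl/fl and 5 and 29 in PKM2-/- hearts. Fewer passed by the threshold's construction, and 23.5% and 28.8% of all genes passed it, so the pathway counts lay near those shares. Between genotypes after MI 1 member passed under total count without ribosomal loci and under DESeq2, and 0 to 1 with a library left out. For sham against baseline in PKM2-/- hearts the count was 0 in place of 1 under total-count scaling, edgeR, no filter, only the groups compared, the 2-fold threshold and the replicate block, and 0 to 2 with a library left out, the second being Asns, without the second (adjusted p = 0.0346) or the third (0.0418) PKM2fl/fl MI library. The replicate block (Atf4 0.48, adjusted p = 0.0819) left 6 and 8 members passing after MI. Apart from these and the leave-outs named in the report, the 30 results kept their direction and side of the threshold.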

Other observations

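Further genes of the role lists are named here after their values were seen. After MI the cystine transporter Slc7a11 rose by a log2 fold change of 2.39 in PKM2fl/fl hearts (SE 0.38, adjusted p = 9.45e-05, limma), from 51.7 ± 22.7 to 287 ± 142 (SD, n = 3), and by 3.75 in PKM2-/- hearts (SE 0.38, adjusted p = 1.26e-06, limma), from 49.7 ± 14.9 to 672 ± 149. The difference between the genotypes' effects, 1.36 (SE 0.53), had an adjusted p of 0.540 by limma. Gdf15, a stress cytokine, rose by 2.84 and 2.39 (both SE 0.44), and Creb3l1, a membrane-bound transcription factor that drives collagen secretion, rose by 2.25 and 1.85 (both SE 0.23). Vldlr, a lipoprotein receptor, fell from 8626 ± 951 to 2514 ± 883 in PKM2fl/fl hearts and from 7303 ± 752 to 1458 ± 144 in PKM2-/- hearts.

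Between genotypes after MI, 3 of the 104 pathway genes passed by limma, against 0.967% of all genes tested. Ddit4, an inhibitor of mTORC1, was higher in PKM2-/- hearts, at 1614 ± 237 against 547 ± 141 (log2 1.58, SE 0.30, adjusted p = 0.0319, n = 3 each). Ppib, a prolyl isomerase of the ER, was higher as well, at 2189.8 ± 17.5 against 1582 ± 45.7 (log2 0.47, SE 0.10, adjusted p = 0.0456). Cth was lower, at 12.3 ± 0.874 against 39.0 ± 16.3 (log2 -1.51, SE 0.34, adjusted p = 0.0481). After sham surgery, against baseline, 9 of the 104 passed in PKM2-/- hearts, all higher (8.65%, against 3.48% of all genes that were higher): besides Atf4 these were Atf3 (log2 2.58), Ddit4 (2.13), Cebpb (1.55), Creb3l1 (1.48), Mthfd2 (1.45), Nupr1 (1.07), Slc38a2 (0.78) and Edem1 (0.74). In PKM2fl/fl hearts 0 of the 104 passed, where 0.165% of all genes were called higher, so far fewer genes of any kind passed there. Whether the genotypes differed in this was not tested.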
